A study of Mus musculus with 15 samples.

Results

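Type I interferon-stimulated genes were followed in CD8+ T cells with and without Susd2, before and after activation with antigen. The set is a list of 43 named genes, drawn up with earlier results of these data known, that leaves out the Irf and Ly6 families and, Mx1 and Mx2 apart, the interferon-inducible GTPases. All 43 were among the 27019 gene symbols of the count table, and 42 passed a filter on low counts that kept 16057 genes. Oas1g did not pass, with 0 to 6 counts in a library. CD8+ T cells came from the spleens of C57BL/6 mice with the OT-I transgene, aged 8 to 10 weeks. Every group shares the transgenic OT-I receptor, which recognises the ovalbumin peptide OVA257-264. The mice were wild type (WT) or Susd2-/-, which lack the membrane protein Susd2. Cells were taken from untreated spleen (day 0) or from splenocytes that had received the peptide for 3 days (day 3), and were isolated with a magnetic CD8+ T cell kit in both cases. Each of the 4 groups held 2 RNA-seq libraries, numbered 3 and 4 at day 0 and 1 and 2 at day 3. No label ties a library to its own mouse, and p-values here speak to the scatter among the sequenced libraries alone, part or all of which may be technical.

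Type I interferons bind the receptor formed by Ifnar1 and Ifnar2, whose kinases Jak1 and Tyk2 phosphorylate transcription factors such as Stat2. With Irf9, Stat2 acts in a complex that binds a DNA element made of repeated GAAA blocks, the interferon-stimulated response element, and switches on genes that sense, bind or destroy viral nucleic acid. Many of these genes also answer to interferon-gamma, which activated CD8+ T cells secrete. In T cells, type I interferon is known as a signal that accompanies antigen and costimulation during priming.

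Promoter sequences were searched for the response element. RefSeq promoter windows of the GRCm38.p6 build, 250 bases before to 50 bases after a gene's start, were matched by symbol for 33 of the 43 members. Those named only are Dhx58, Ifi27l2a, Mx1, Mx2, Oas2, Parp14, Parp9, Rtp4, Usp18 and Zbp1. GAAANNGAAA, searched on both strands with overlapping matches counted, was present in 16 of the 33 members (48.5%) and in 3.99% of all 27025 symbols with a window of that length. The longer GAAANNGAAACT was present in 9 members (27.3%) and in 0.303% of all symbols. Matches are a description of the letters and not evidence of binding. The following stretches lie before the start of 8 members and are shown because they hold the element; capitals mark GAAANNGAAA or, where it lies on the other strand, TTTCNNTTTC. Each is written along the gene's own strand.
Ifit1 (chr19:34640755-34640843, plus strand): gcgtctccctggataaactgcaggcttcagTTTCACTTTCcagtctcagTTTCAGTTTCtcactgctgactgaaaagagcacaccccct
Ifit3 (chr19:34583343-34583446, plus strand): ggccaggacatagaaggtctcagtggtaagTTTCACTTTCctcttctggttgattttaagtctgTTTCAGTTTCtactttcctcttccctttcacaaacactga
Ifit3b (chr19:34607739-34607842, plus strand): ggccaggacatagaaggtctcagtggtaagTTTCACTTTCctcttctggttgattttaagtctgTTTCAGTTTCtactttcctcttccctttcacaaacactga
Isg15 (chr4:156200845-156200926, minus strand): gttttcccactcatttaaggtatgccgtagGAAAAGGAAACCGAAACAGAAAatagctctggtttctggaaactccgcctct
Oas1a (chr5:120907526-120907575, minus strand): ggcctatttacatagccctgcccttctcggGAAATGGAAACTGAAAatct
Rsad2 (chr12:26456533-26456602, minus strand): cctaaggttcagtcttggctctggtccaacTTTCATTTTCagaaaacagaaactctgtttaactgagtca
Phf11b (chr14:59341341-59341410, minus strand): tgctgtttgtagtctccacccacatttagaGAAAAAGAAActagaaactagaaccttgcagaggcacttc
Bst2 (chr8:71537557-71537632, minus strand): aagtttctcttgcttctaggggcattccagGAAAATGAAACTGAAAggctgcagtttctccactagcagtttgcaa
The Ifit1 and Ifit3 stretches each hold 2 separate matches on the other strand, and the Isg15 stretch holds 3 overlapping matches on its own strand. The Ifit3 and Ifit3b stretches were equal at all 104 of 104 bases, and the transcripts of these neighbours on chromosome 19 are also alike: 41.1% of the 75-base words in Ifit3 transcripts and 35.7% of those in Ifit3b occur in another gene's transcripts. The same share was 47.6% for Oas1a and 36.9% for Oas1g, which resemble each other, and 26.8% for Phf11b, which resembles Phf11c. Counts of these 5 members are uncertain because reads may be split between the copies. Parp9 and Dtx3l lie head to head on chromosome 16 and overlap by 458 exonic bases on opposite strands, so their counts could mix if strand was not used in counting.

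Levels are given as CPM, counts relative to the library total scaled by edgeR's TMM factors. A gene is said to rise, fall or be called where edgeR's quasi-likelihood test gave a Benjamini-Hochberg adjusted p below 0.05 over all 16057 genes, in 1 fit of the 4 groups. Library totals ran from 26829807 to 53846911 counts, and the spread between libraries of a group was 5.38% at day 0 and 10.1% at day 3 (biological coefficient of variation). Susd2 itself had 90 and 80 counts in the WT libraries and 1 and 3 in the Susd2-/- libraries at day 0, and 16 and 10 against 0 and 2 at day 3. The CD8 T cell markers were present, at a summed 5711 to 6816 CPM at day 0 and 3915 to 4107 CPM at day 3, with 5 of 10 lower in Susd2-/- cells at day 0. Markers of other spleen cells differed with genotype at day 0. Of 15 monocyte and macrophage markers 9 were higher in Susd2-/- cells, with a summed level of 92.6 and 92.2 CPM in WT and 197 and 186 CPM in Susd2-/- libraries, and of 7 NK cell markers 3 were lower, with a sum of 92.4 and 94.3 against 53.2 and 53.8 CPM. In bulk RNA, fewer cells of a type and less RNA per cell cannot be told apart, and the part of these cells in the results below was not tested.

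WT library 2 of day 3 stood apart from the other day 3 libraries in these genes, and results that rest on it are given with and without it. It was the highest of the 4 day 3 libraries for 39 of 42 members (92.9%), against 29.7% of all genes tested, the exceptions being Ifit3, Znfx1 and Phf11d. Its level was a median of 1.61 times that of WT library 1 over the 41 members with a count in both, against 1.01 times over all genes. Of the 42 members 40 were above WT library 1, 25 were at least 1.5 times and 9 at least 2 times as high, the last including Ifit3b with 0 and 4 counts; of all genes, 11.6% and 7.35% were. In Susd2-/- cells the ratio of library 2 to library 1 was a median of 0.932. The members summed to 2695 CPM in WT library 1, 3605 in WT library 2, and 2940 and 2746 in the Susd2-/- libraries.

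**Figure D1:**
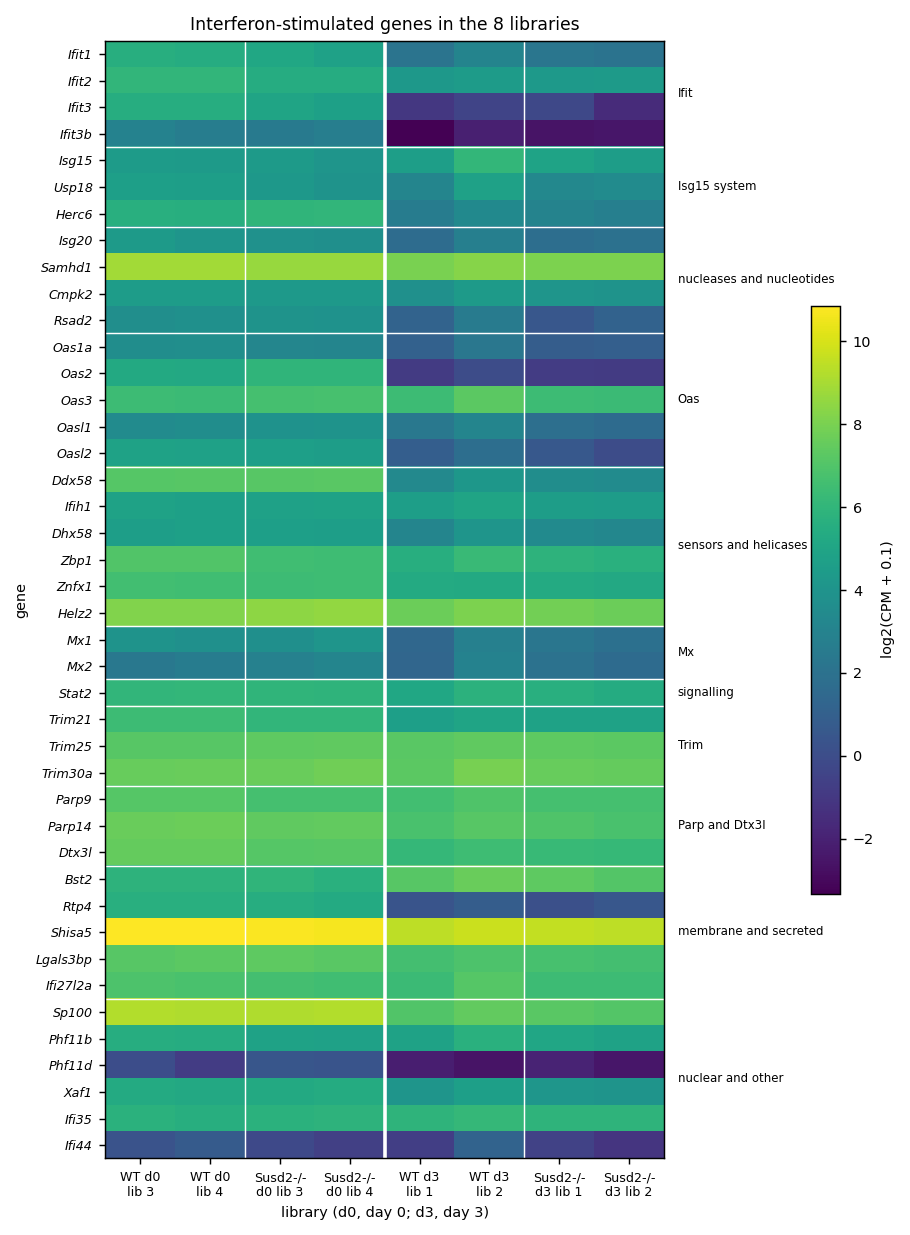
Level of the 42 members in each of the 8 libraries, as log2(CPM + 0.1) on a colour scale, with rows grouped by role and columns by group (d0, day 0; d3, day 3). Ifit3, Ifit3b, Oas2 and Rtp4 are dark in all 4 day 3 libraries, and WT library 2 of day 3 is brighter than its neighbours in most rows.

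Per kilobase of exon (GENCODE M21 models), the most abundant member in WT cells at day 0 was Shisa5, a membrane protein of the endoplasmic reticulum, at 556 CPM per kb. It was followed by Ifi27l2a at 249.5, Sp100, a component of nuclear bodies, at 78.8, and Bst2 at 63.0 CPM per kb. Well-known interferon response genes lay far below these: Isg15 stood at 28.7, Ifit1 at 17.2, Mx1 at 3.84 and Rsad2 at 3.03 CPM per kb. At the foot of the list were Ifi44 at 0.222, Phf11d at 0.154 and Oas1g at 0.0141 CPM per kb, the last under the filter on low counts. At day 3 the WT order depended on the library. In WT library 1 Shisa5 led at 215 CPM per kb, ahead of Ifi27l2a at 172 and Bst2 at 161, and Isg15 was at 32.0 CPM per kb. In WT library 2 Ifi27l2a led at 301 CPM per kb, ahead of Shisa5 at 256 and Bst2 at 214, and Isg15 was at 89.8 CPM per kb. As means of the WT libraries, Sp100 was at 20.3 and Ifit3 at 0.294 CPM per kb.

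Loss of Susd2 was first compared in untreated cells. At day 0, Susd2-/- cells had less of 6 members, the Ifit genes Ifit2 and Ifit3, the ubiquitin ligase gene Trim21, the partners Parp9 and Dtx3l, and the nucleotide hydrolase gene Samhd1, and more of 1, Oas2. The falls were by 0.24 to 0.66 on the log2 scale, and the lowest ratio of Susd2-/- to WT means among them was 0.634, for Ifit3. The other 35 members were not called. That is 2.38% of the 42 members higher and 14.3% lower, where 11.5% of all genes were called higher and 12.1% lower. The median member was at -0.12 (log2) against 0.01 for all genes, and 26 of 42 members were below 0, against 48.5% of all genes. The lean to lower calls was weaker with DESeq2. That fit also called Herc6, Helz2 and Trim25 higher (DESeq2 adjusted p = 0.0385, 0.00365 and 0.0241). Ifit3 lost its call there and the remaining calls held.

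The Ifit proteins bind viral RNA and block its translation. Ifit2 stood at 64.8 and 64.4 CPM in WT and at 43.7 and 43.7 CPM in Susd2-/- cells of day 0. The libraries of a genotype were nearly equal and the genotypes did not overlap, with a log2 fold change of -0.56 ± 0.09 (SE, n = 2 libraries a group; edgeR adjusted p = 0.000231). Ifit3 went from 45.3 and 46.1 to 31.3 and 26.7 CPM (-0.66 ± 0.17, edgeR adjusted p = 0.01), a call that was lost with DESeq2 (-0.63, DESeq2 adjusted p = 0.281). Ifit1 had a similar difference, 46.6 and 44.6 against 34.4 and 27.3 CPM, but did not pass the test (-0.56 ± 0.24, edgeR adjusted p = 0.149). Ifit3b overlapped between genotypes, at 7.69 and 6.42 against 5.41 and 6.56 CPM.

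Among the ubiquitin and ADP-ribose enzymes, Trim21, a ligase that also binds antibody inside cells, was at 83.9 and 84.7 CPM in WT and 63.9 and 64.4 CPM in Susd2-/- libraries (-0.39 ± 0.08, edgeR adjusted p = 0.00224). Parp9 and the ligase Dtx3l, which form a complex, were lower by similar amounts. Parp9 had 137 and 141 CPM in WT against 102 and 102 CPM (-0.45 ± 0.11, edgeR adjusted p = 0.0123). Dtx3l had 181 and 180 against 139 and 145 CPM (-0.35 ± 0.08, edgeR adjusted p = 0.00421). Parp14, another ADP-ribosyltransferase, was not called at 197 and 201 against 170 and 178 CPM. Trim25, the ligase of the RNA sensor RIG-I, lay the other way, at 144 and 146 against 160 and 170 CPM. It was not called with edgeR (0.18 ± 0.07, edgeR adjusted p = 0.0522) and was called with DESeq2 (0.21, DESeq2 adjusted p = 0.0241).

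Samhd1, which breaks down the deoxynucleotides that viruses need, had 476 and 470 CPM in WT and 402 and 401 CPM in Susd2-/- libraries (-0.24 ± 0.07, edgeR adjusted p = 0.0227). Rsad2, the enzyme viperin, which makes a chain-terminating nucleotide, did not pass the test at 12.7 and 13.6 against 15.8 and 15.2 CPM. The oligoadenylate synthetases make a second messenger in response to double-stranded RNA, and their direction was mixed. Oas2 rose from 39.2 and 37.1 CPM to 61.4 and 61.0 CPM (0.68 ± 0.11, edgeR adjusted p = 0.000239), without overlap of the genotypes. Oasl1, a relative that curbs translation of Irf7, was at 11.6 and 12.2 against 15.2 and 15.7 CPM and was not called (0.38 ± 0.19, edgeR adjusted p = 0.181), and Oas1a was at 12.3 and 12.8 against 9.11 and 8.75 CPM.

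Isg15, a ubiquitin-like tag, and Usp18, which removes that tag and damps receptor signalling, were not called at day 0. Isg15 had 22.0 and 21.4 CPM in WT and 20.9 and 16.5 CPM in Susd2-/- libraries (-0.21 ± 0.56). Usp18 had 25.3 and 25.0 against 18.6 and 15.8 CPM (-0.55 ± 0.56, edgeR adjusted p = 0.574). The large SE of these genes goes with their day 3 libraries, since all groups share 1 estimate of the spread and Usp18 differed 3.23-fold between the WT libraries of day 3. Stat2, the transcription factor specific to the type I and type III response, was at 65.1 and 67.0 against 61.8 and 58.7 CPM (-0.13 ± 0.21).

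Libraries did not overlap between genotypes at day 0 for 33 members, 11 higher (26.2%, against 33.6% of all genes) and 22 lower in Susd2-/- cells (52.4%, against 31.4%). In a fit of the day 0 libraries alone 22 members were called. There 15 were lower (35.7%, against 19.5% of all genes), including Ifit1, Usp18, Zbp1, Oas1a and Phf11b, and 7 were higher (16.7%, against 18% of all genes), Herc6, Oas2, Oas3, Oasl1, Helz2, Mx2 and Trim25. Without WT library 2 of day 3 the counts were 14 lower (33.3%, against 14% of all genes) and 4 higher (9.52%, against 11.5%), and without WT library 1 of day 3 also 14 and 4 (all genes: 14.2% and 11.6%). Leaving out WT library 4 or Susd2-/- library 4 of day 0 left 4 calls each (9.52% of members, against 12.2% and 12.4% of all genes), with the lone library assumed to vary like the other groups, and summing the day 0 libraries of a group into 1 left 0.

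**Figure D2:**
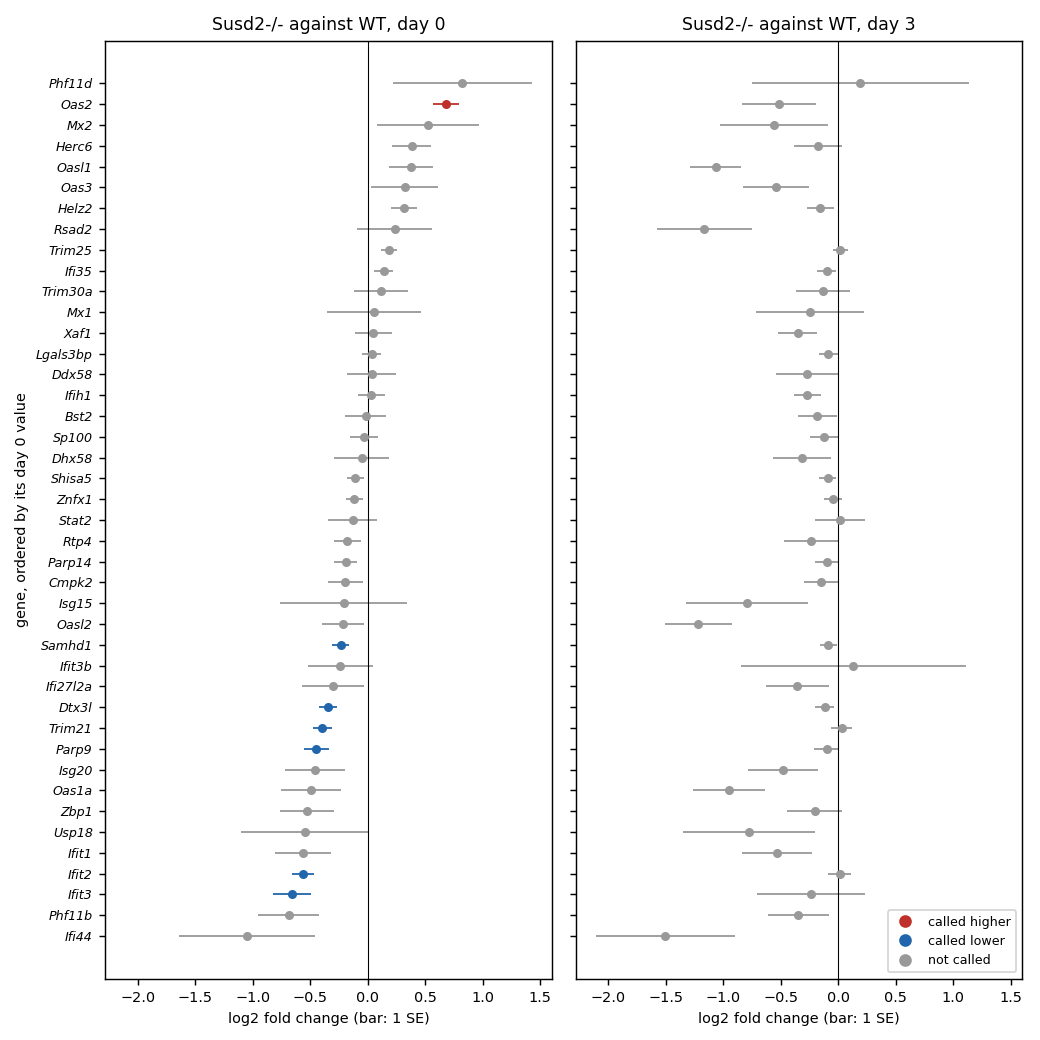
Log2 fold change of Susd2-/- against WT cells for each tested member at day 0 (left) and day 3 (right), with bars of 1 SE from edgeR, genes in the order of their day 0 value and colour for the call (red higher, blue lower, grey not called). At day 0 a single member is called higher and 6 lower; at day 3 none is called and 36 of 42 points lie left of 0.

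After 3 days with the peptide, no member was called between the genotypes, though most had lower values in Susd2-/- cells. Of 42 members 36 were below 0, against 48.6% of all genes, and the median was -0.22 (log2), against 0 for all genes. This lean depended on WT library 2, as given below. With edgeR 0 members were called in either direction, where 0.0498% of all genes were called higher and 0.0872% lower; 6 members (14.3%, against 7.89% of all genes) had an unadjusted p below 0.05, all lower, DESeq2 called 2, Oasl1 and Oasl2 (0.411% of all genes), and limma voom called 0 (0.156% of all genes). Libraries did not overlap for 6 members, Rsad2, Oas1a, Oas3, Oasl1, Oasl2 and Ifih1, all lower in Susd2-/- cells (14.3%, against 16.3% of all genes), and for 0 members higher (17.4% of all genes).

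Of the 8 members with the smallest p at day 3, 3 belong to the synthetase family. Oasl1 had 5.04 and 8.60 CPM in WT against 3.50 and 3.03 CPM in Susd2-/- cells of day 3 (-1.07 ± 0.22, edgeR adjusted p = 0.0747). Oasl2, its neighbour on chromosome 5, had 1.78 and 3.40 against 1.41 and 0.886 CPM (-1.22 ± 0.29, edgeR adjusted p = 0.187). Oas1a had 2.03 and 4.85 against 1.68 and 1.83 CPM (-0.95 ± 0.31, edgeR adjusted p = 0.415). In each, WT library 2 was the highest and WT library 1 lay nearer to the Susd2-/- libraries. Rsad2 had 2.23 and 5.77 CPM in WT and 1.35 and 2.09 CPM in Susd2-/- libraries (-1.16 ± 0.41, edgeR adjusted p = 0.531). Ifi44, which was scarce throughout, had 0.517 and 2.16 against 0.606 and 0.355 CPM (-1.50 ± 0.60, edgeR adjusted p = 0.532). Ifih1, the sensor MDA5 of long double-stranded RNA, had 24.7 and 31.6 against 23.9 and 22.8 CPM (-0.27 ± 0.12, edgeR adjusted p = 0.583). Xaf1, a pro-apoptotic zinc finger gene, had 16.6 and 26.0 against 17.2 and 16.1 CPM, and Ifit1 had 4.26 and 8.49 against 4.68 and 4.16 CPM, so that their genotypes overlapped.

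The Isg15 pair shows how far the day 3 comparison turns on a single library. Isg15 had 24.2 and 67.9 CPM in WT against 29.9 and 23.4 CPM in Susd2-/- cells (-0.79 ± 0.53, edgeR adjusted p = 0.805). Usp18 had 8.66 and 28.0 against 9.80 and 11.4 CPM (-0.78 ± 0.57, edgeR adjusted p = 0.829). For both genes, WT library 1 lay at or below the level of the Susd2-/- libraries or between them, and only WT library 2 was high. Mx1 and Mx2 also peaked in WT library 2 while WT library 1 was the lowest of the 4. Mx1 had 2.52 and 7.18 CPM in WT against 4.58 and 3.62 CPM in Susd2-/- libraries, and Mx2 had 2.45 and 7.65 against 3.91 and 2.97 CPM. Stat2 had 34.6 and 54.9 against 48.8 and 41.7 CPM, a range in WT that enclosed both Susd2-/- values.

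With WT library 2 as the lone WT library of day 3, 21 members were lower in Susd2-/- cells (50%, against 1.25% of all genes), 0 were higher (0.562% of all genes) and the median was -0.47. With WT library 1 as the lone one, 0 members were called in either direction (all genes: 0.204% higher, 0.14% lower), the median was 0.12 and 9 of 42 members were below 0. Oasl1 was at -1.36 with library 2 alone and -0.61 with library 1 alone (edgeR adjusted p = 4.01e-06 and 0.414), and Isg15 was at -1.31 and 0.15. In these fits the lone WT library is assumed to vary like the other groups, which supply the spread. WT library 2 came from 1 sequencing lane and the other libraries from 2, and with lane 1 alone of every library 1 member was called (0.109% of all genes). At day 3 the monocyte and macrophage markers summed to 40.4 and 47.8 CPM in WT and 39.3 and 37.1 CPM in Susd2-/- libraries, with Vcam1, C1qa, C1qc, Spic, Adgre1 and Marco at 0 counts in all 4. The plasmacytoid dendritic cell markers, of a cell type known for making interferon, summed to 16.4 and 23.2 against 20.2 and 18.7 CPM, with Siglech at 0 in all 4. The part of these cells in the level of WT library 2 was not tested.

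**Figure D3:**
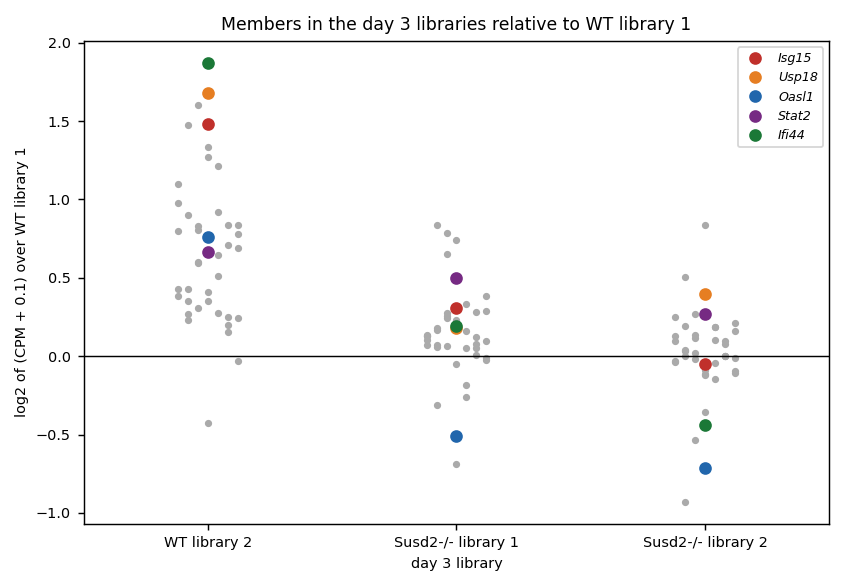
Each point is 1 member in 1 day 3 library, as log2 of (CPM + 0.1) over the same value in WT library 1; 5 members are coloured. In WT library 2, 40 of 42 members lie above 0, whereas most members of the Susd2-/- libraries lie nearer to 0.

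The comparison of days asks how these genes stood in activated against untreated cells. No day 3 group went without the peptide, so activation cannot be told apart from other differences between the days, such as the time outside the animal. From day 0 to day 3, 29 members fell and 2 rose in WT cells, and 29 fell and 1 rose in Susd2-/- cells. The falls made up 69% of members in each genotype, against 39% of all genes in WT and 39.7% in Susd2-/- cells, and the rises 4.76% and 2.38%, against 36.2% and 36.7% of all genes. The median member was at -0.94 (log2) in WT and -1.11 in Susd2-/- cells, against -0.14 and -0.12 for all genes. The WT values again depended on the day 3 library: without library 1 the median was -0.61, with 27 falls (64.3%, against 34.2% of all genes) and 7 rises (16.7%, against 33%), and without library 2 it was -1.33, with 35 falls (83.3%, against 34.4%) and 2 rises (4.76%, against 33.6%). At least 2-fold falls were called for 21 members in WT (50%, against 27.1% of all genes) and 22 in Susd2-/- cells (52.4%, against 28.1%), and at least 8-fold falls for 6 (14.3%, against 9.62%) and 9 (21.4%, against 10.4%). The CD8 T cell markers themselves fell for 9 of 10 in each genotype. Marker lists of other spleen cells also moved over these days. Of 10 B cell markers 5 fell in WT and 9 in Susd2-/- cells, whereas of 6 tested plasma cell markers 4 and 3 rose and 2 fell in each. In WT and Susd2-/- cells 12 and 14 of 15 monocyte and macrophage markers fell (summed 92.2 to 197 CPM at day 0 and 37.1 to 47.8 CPM at day 3), and all 7 NK cell markers fell in each (53.2 to 94.3 and 1.82 to 3.78 CPM). Of 4 tested plasmacytoid dendritic cell markers 3 fell in each genotype and 1 rose in WT cells. The list summed to 261 to 284 CPM at day 0 and 16.4 to 23.2 CPM at day 3. Bulk RNA does not show which cells this sum came from, and CD8+ T cells may be among them. The part of other spleen cells in the falls of the members was not tested. Scaling by library totals put the median of all genes at -0.32 in both genotypes, and members below 0 then numbered 38 in place of 35 in WT and 40 in place of 37 in Susd2-/- cells.

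The deepest falls were of Ifit3, its copy Ifit3b, Oas2 and Rtp4 in both genotypes. Ifit3 went from 45.3 and 46.1 CPM to 0.388 and 0.637 CPM in WT cells (-6.48 ± 0.27, edgeR adjusted p = 5.4e-12) and from 31.3 and 26.7 to 0.741 and 0.236 CPM in Susd2-/- cells (-6.06 ± 0.26). Ifit3b went from 246 and 188 counts to 0 and 4 counts in WT libraries (-6.62 ± 0.50) and from 171 and 192 to 2 and 4 counts in Susd2-/- libraries (-6.26 ± 0.47). Both genes were thus close to undetected in activated cells. Ifit2 and Ifit1 kept more of their level, at 18.7 to 21.9 CPM and 4.16 to 8.49 CPM over the day 3 libraries. Ifit1 fell by 2.85 ± 0.28 in WT (edgeR adjusted p = 3.31e-05) and by 2.81 ± 0.28 in Susd2-/- cells on the log2 scale.

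Oas2 went from 39.2 and 37.1 CPM to 0.452 and 0.885 CPM in WT cells (-5.85 ± 0.18, edgeR adjusted p = 5.69e-16) and from 61.4 and 61.0 to 0.472 and 0.453 CPM in Susd2-/- cells (-7.04 ± 0.18, edgeR adjusted p = 3.96e-17). The mean level dropped 57.1-fold in WT and 132-fold in Susd2-/- cells, and at day 3 the genotype difference was not called (-0.52 ± 0.32). Rtp4, a chaperone-like protein induced by interferon, went from 48.7 and 48.6 to 1.16 and 1.70 CPM in WT (-5.09 ± 0.17, edgeR adjusted p = 1.27e-15) and from 45.8 and 40.2 to 1.01 and 1.34 CPM in Susd2-/- cells (-5.15 ± 0.17). Other synthetase genes did not share this depth, though 4 of 5 tested family members fell in each genotype, where 39% and 39.7% of all genes fell. Oasl2 was at -3.47 ± 0.23 in WT and -4.47 ± 0.25 in Susd2-/- cells. Oas1a was at -1.88 ± 0.28 and -2.34 ± 0.30, and Oasl1 at -0.81 ± 0.20 and -2.25 ± 0.21. Only Oas3 was not called in either genotype, at 81.4 to 107 CPM at day 0 and 80.6 to 154 CPM at day 3.

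The sensors and helicases fell to different depths, 5 of 6 in WT and 6 of 6 in Susd2-/- cells (all genes: 39% and 39.7%). Dhx58 was at -1.03 ± 0.25 in WT and -1.29 ± 0.25 in Susd2-/- cells (edgeR adjusted p = 0.00497 and 0.00135). Ddx58, which encodes RIG-I, had 140 to 150 CPM in the day 0 libraries and 10.2 to 18.3 CPM at day 3, a fall by 3.34 ± 0.25 in WT (edgeR adjusted p = 9e-05) and by 3.64 ± 0.25 in Susd2-/- cells on the log2 scale. Ifih1, the partner sensor, was at 26.4 to 28.9 CPM at day 0 and 22.8 to 31.6 CPM at day 3, with 0.03 ± 0.12 in WT and a small called fall in Susd2-/- cells (-0.27 ± 0.12, edgeR adjusted p = 0.0421). Rsad2 fell by 1.73 ± 0.36 in WT (edgeR adjusted p = 0.00235) and by 3.13 ± 0.39 in Susd2-/- cells (edgeR adjusted p = 8.18e-05). Sp100, among the most abundant members, went from 569 to 602 CPM at day 0 to 131 to 176 CPM at day 3. Shisa5 went from 1637 to 1863 CPM at day 0 to 710 to 845 CPM at day 3.

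Against this, Bst2 rose. Bst2 encodes tetherin, which holds budding virus at the cell surface, and went from 56.9 and 56.9 CPM to 145 and 193 CPM in WT (1.57 ± 0.18, edgeR adjusted p = 0.000235) and from 61.2 and 51.0 to 165 and 134 CPM in Susd2-/- cells (1.41 ± 0.18, edgeR adjusted p = 0.000399). Ifi35 had a smaller rise in WT, from 52.7 and 48.3 to 60.4 and 69.3 CPM (0.36 ± 0.08, edgeR adjusted p = 0.000793), which was lost under scaling by library totals or upper quartiles, and was not called in Susd2-/- cells (0.12 ± 0.08). Isg15 was above both day 0 libraries in each genotype and not called (WT 1.08 ± 0.54, edgeR adjusted p = 0.135; Susd2-/- 0.50 ± 0.55). Usp18 (-0.47 ± 0.56 in WT and -0.69 ± 0.57 in Susd2-/- cells) and Stat2 (-0.57 ± 0.21 and -0.42 ± 0.21) were not called. Trim25, Trim30a, Oas3, Ifi27l2a, Phf11b and Ifi44 were also not called in either genotype.

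**Figure D4:**
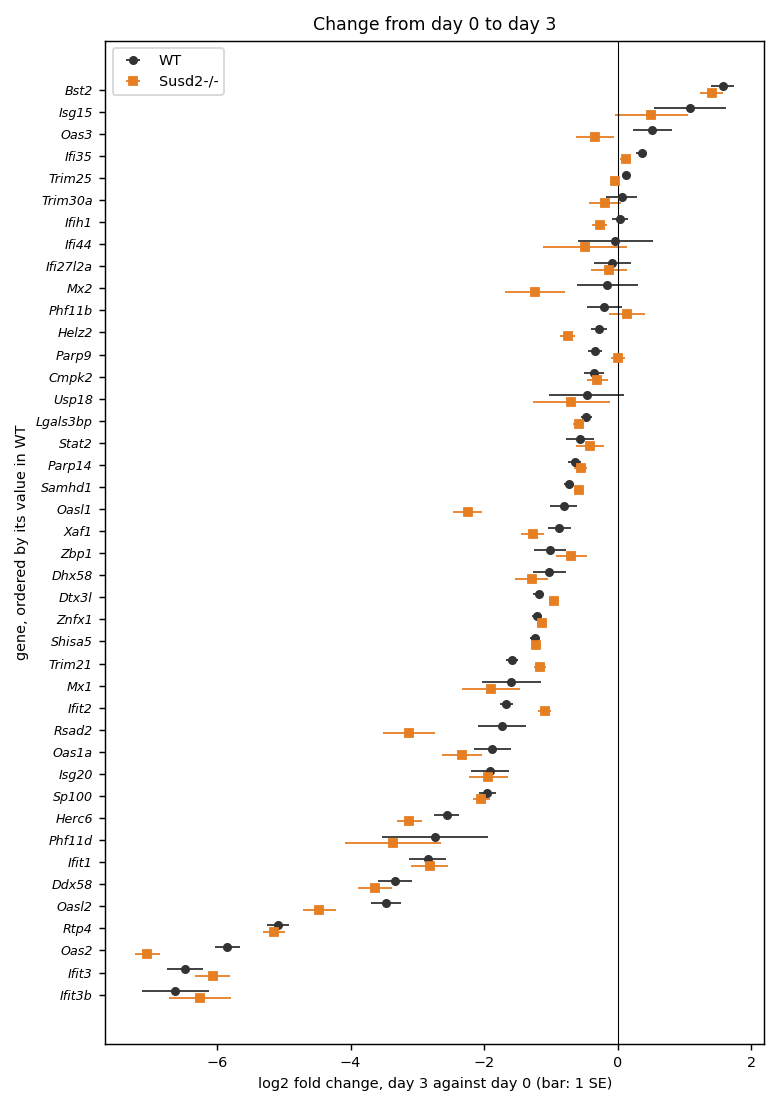
Log2 fold change from day 0 to day 3 for each tested member in WT (dark circles) and Susd2-/- cells (orange squares), with bars of 1 SE from edgeR and genes in the order of their WT value. Most points of both genotypes lie left of 0, Ifit3b, Ifit3, Oas2 and Rtp4 beyond -5, and Bst2 alone lies beyond 1 in both.

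The interaction of genotype and day asks whether the genotype difference itself changed from day 0 to day 3, and 4 members passed that test. It was positive for Ifit2 (0.58 ± 0.14, edgeR adjusted p = 0.00835) and Trim21 (0.43 ± 0.12, edgeR adjusted p = 0.0284), and negative for Oas2 (-1.20 ± 0.34, edgeR adjusted p = 0.0269) and Oasl1 (-1.44 ± 0.29, edgeR adjusted p = 0.00305). Positive calls were 4.76% of members and negative calls 4.76%, against 6.6% and 6.88% of all genes. The values per library show the 2 patterns. Ifit2 was lower in Susd2-/- cells at day 0, as given above, and at day 3 had 18.7 and 21.9 CPM in WT and 19.5 and 21.4 CPM in Susd2-/- libraries, with overlap. Trim21 likewise had 25.4 and 30.8 against 28.4 and 28.9 CPM at day 3. Oasl1 was above WT in both Susd2-/- libraries at day 0 and below both WT libraries at day 3.

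The interaction also turned on the WT libraries of day 3. Without WT library 1, 18 members were called, 17 negative (40.5%, against 5.86% of all genes) and 1 positive (2.38%, against 8.39%). Without WT library 2, 13 were called, 12 positive (28.6%, against 7.83%) and 1 negative (2.38%, against 5.32%). Ifit2 and Oasl1 were called in both of these fits with the same sign, the lone WT library again being assumed to vary like the other groups; with lane 1 alone of every library Ifit2 was not called (0.44, edgeR adjusted p = 0.12). Trim21 was not called without library 1 (edgeR adjusted p = 0.0787) and Oas2 not without library 2 (edgeR adjusted p = 0.471). Without WT library 4 of day 0, Susd2-/- library 4 of day 0 or Susd2-/- library 2 of day 3 the count was 2 each (4.76% of members, against 6.89%, 7.44% and 8.62% of all genes).

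**Figure D5:**
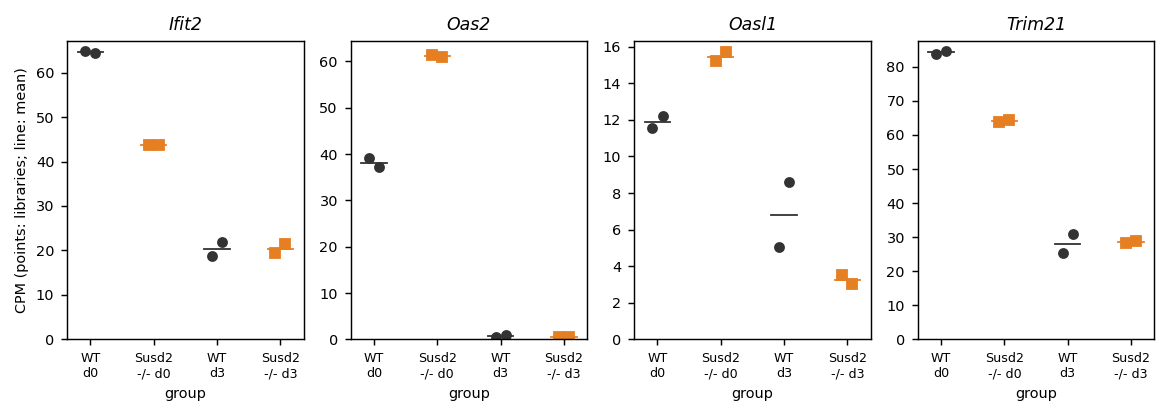
CPM of the 4 members called for the interaction of genotype and day; points are libraries (circles WT, squares Susd2-/-), lines are group means, d0 is day 0 and d3 is day 3, and each panel has its own axis from 0. Genotypes are apart at day 0 for all 4 genes, and at day 3 they do not overlap for Oasl1 alone.

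Genes upstream of the list were looked at from lists of pathway members. Of 10 interferon ligand genes in the table only Ifng, which encodes interferon-gamma, passed the filter, and the other 9, the interferon-alpha genes among them, were at or below 0.186 CPM in every library. Ifng was at 3.62 to 5.28 CPM in the day 0 libraries, and at day 3 at 583 and 528.6 CPM in WT and 295 and 410.4 CPM in Susd2-/- libraries. It rose by 6.95 ± 0.27 in WT and 6.32 ± 0.26 in Susd2-/- cells on the log2 scale (edgeR adjusted p = 3.65e-06 and 5.24e-06), and the genotype difference at day 3 did not pass the test (-0.65 ± 0.19, edgeR adjusted p = 0.498). For Ifng, WT library 1 was the higher of the WT libraries at day 3. The part of Ifng in the levels of the members was not tested.

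Of 9 receptor and signalling genes outside the list, 2 were lower and 3 higher in Susd2-/- cells at day 0 (all genes: 12.1% and 11.5%), and 0 were called at day 3 (all genes: 0.0872% and 0.0498%). Ifnar2 was slightly lower at day 0 (-0.30 ± 0.11, edgeR adjusted p = 0.0484) and Ifnar1 was not called (0.01 ± 0.07), nor was Irf9 (-0.10 ± 0.08). The interferon-gamma receptor genes Ifngr1 (0.65 ± 0.06) and Ifngr2 (0.73 ± 0.10) and the kinase gene Jak1 (0.18 ± 0.06) were the 3 that were higher. All 9 fell from day 0 to day 3 in WT cells and 8 fell in Susd2-/- cells, where 39% and 39.7% of all genes fell.

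A further list of 64 tested interferon-induced genes includes schlafen genes and, of the interferon-inducible GTPases, Ifi47 alone. It was lower for 20 and higher for 3 in Susd2-/- cells at day 0 (all genes: 12.1% and 11.5%), and for 0 at day 3. Those of smallest adjusted p were all lower at day 0. Ifi47, an interferon-inducible GTPase, had 276 and 260 CPM in WT and 155 and 145 CPM in Susd2-/- libraries (-0.84 ± 0.08, edgeR adjusted p = 4.78e-07). Ifit1bl1, a relative of Ifit1, had 119 and 113 against 29.97 and 32.1 CPM (-1.90 ± 0.15, edgeR adjusted p = 9.5e-06). Slfn2 (-0.60 ± 0.06), Ms4a4c (-1.11 ± 0.12) and Ms4a4b (-0.52 ± 0.06) were lower too. WT library 2 was the highest of the day 3 libraries for 54 of these 64 genes, against 29.7% of all genes. In this list 45 genes fell and 13 rose from day 0 to day 3 in WT cells, and 44 fell and 11 rose in Susd2-/- cells, where 39% and 39.7% of all genes fell and 36.2% and 36.7% rose.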

How the data were processed

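The deposited file is a table of raw counts per gene symbol, whole numbers with no normalization, per the file header and the values, in 15 columns that are sequencing lanes of 8 libraries. Polyadenylated RNA was sequenced as paired ends from a stranded kit, per the labels' protocols. Tools listed in the submitters' processing notes are Subread 2.0.1, SAMtools 1.10, HISAT2 2.1.0 and fastp 0.23.2, with the GRCm38 build. How strand and multiply aligned reads were handled is not given in the sources used here.

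Lanes were summed per library, 2 lanes for 7 libraries and 1 for WT library 2 of day 3. In each lane genes with 2 counts outnumbered those with 1 count by 1.69 to 2.04 times, so counts are not independent fragments. edgeR 4.0.16 in R 4.3.3 was run with filterByExpr, TMM factors, glmQLFit and glmQLFTest (robust) on all 4 groups, with the Benjamini-Hochberg method over 16057 genes in each comparison. SE is the log2 fold change over the square root of F. The procedure was run on simulated counts with planted fold changes, drawn independently for each gene and library. These lacked the surplus of genes with 2 counts and a library that stands apart, so the simulation does not speak to either. Alternatives were other scalings and filters, DESeq2 1.42.0, voom from limma 3.58.1, lane 1 alone, each day alone, day 0 libraries summed, each library left out and the library number as a block.

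The members and lists were chosen with earlier results of these data known. Values per library are given for members called between genotypes or in the interaction, for the 8 members of smallest p at day 3, for up to 4 called rises and 4 called falls of largest fold in each day comparison, and for Ifit1, Isg15, Usp18, Stat2 and Rsad2. From the pathway lists, up to 6 genes called between genotypes by smallest adjusted p and a few signalling genes are named. Members named beyond these illustrate their role group and were chosen after their values were seen. Ifnb1 was not analysed here, and some genes of the pathway lists that the rule names are not reported here.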

Additional observations from a re-analysis of the deposited data

Results flagged for a closer look

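In 4 members the difference between genotypes was not the same at the days, by edgeR's test of the interaction (day 3 difference minus day 0 difference, log2, n = 2 libraries a group). Ifit2 had 0.58 (adjusted p = 0.00835), with lower levels in both Susd2-/- libraries at day 0 and overlap at day 3, and was not called with lane 1 alone of each library (0.44, adjusted p = 0.12). Trim21 had 0.43 (adjusted p = 0.0284) with the same pattern. Oas2 had -1.20 (adjusted p = 0.0269): Susd2-/- libraries were higher at day 0, and at day 3 all 4 libraries had 14 to 25 counts. Oasl1 had -1.44 (adjusted p = 0.00305), higher in both Susd2-/- libraries at day 0 and lower in both at day 3. With the day 0 libraries of a group summed into 1, none of the 4 passed the test (adjusted p = 0.17, 0.28, 0.19 and 0.12 in the same order).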

How the results depend on the processing

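The counts of called members moved by over 1.5 times as follows. At day 0 the count of 7 became 13 with no filter on low counts, 22 with the day 0 libraries alone and 0 with the day 0 libraries of a group summed into 1. At day 3 the count of 0 became 1 with RLE normalization, 1 with upper-quartile scaling, 2 with DESeq2, 4 with no filter and 1 with lane 1 alone. The interaction count of 4 became 7 with DESeq2, 9 with no filter and 0 with the day 0 libraries summed; the cause was not tested, apart from the fewer libraries of the summed fit. Leaving out 1 library at a time gave 4 to 18 calls at day 0, 0 to 21 at day 3, 2 to 18 for the interaction, 26 to 37 for the day change in WT and 26 to 34 in Susd2-/- cells. For 22 results called in the fit of all 4 groups, 355 of 392 alternative values kept their direction and call. Another 37 kept the direction without the call and 0 reversed. These 22 cover the day 0 comparison, the interaction and the largest day changes. They hold no genotype difference at day 3, where no member was called. There some members changed sign without WT library 2, such as Isg15 (-0.79 to 0.15) and Mx1 (-0.25 to 0.71), while Oasl1 did not (-1.07 to -0.61). With the library number as a replicate block the counts were 7 at day 0, 0 at day 3 and 5 for the interaction. Same-numbered libraries of the genotypes showed no shared deviation over all genes tested (correlation 0.00859 at day 0 and -0.0104 at day 3). That cannot tell whether they were paired by mouse or preparation, which no label states. The day comparisons share no library number. Members near 0 counts at day 3, such as Ifit3b, carry SEs up to 0.98 in the genotype comparison, so differences between genotypes there were not detectable at this depth.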

Other observations

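Genes that act before and around the interferon receptor, outside the listed members, were also measured. Of 15 tested genes of nucleic acid sensing, 3 were lower in Susd2-/- cells at day 0 and 1 was higher, with 0 called at day 3; of all genes 12.1% were lower and 11.5% higher at day 0. Tmem173, which encodes the adaptor STING, had 102 and 109 CPM in WT and 78.2 and 70.8 CPM in Susd2-/- libraries at day 0 (-0.50 ± 0.07, edgeR adjusted p = 4.95e-05), and 162 and 152 against 165 and 175 CPM at day 3. Rnaseh2c, a subunit of a ribonuclease complex, was also lower (-0.50 ± 0.11). The kinase gene Ikbke was higher, at 325 and 337 against 406 and 417 CPM (0.31 ± 0.08, edgeR adjusted p = 0.00611). Of 6 negative regulators of the pathway 1 was called at day 0, the phosphatase gene Ptpn6, with 319 and 319 against 467 and 426 CPM (0.48 ± 0.06, edgeR adjusted p = 1.38e-05).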
